A study of Mus musculus with 12 samples.

Results

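NRF2, encoded by Nfe2l2, is a transcription factor that governs the defence of cells against oxidants and electrophiles. Under resting conditions KEAP1 binds NRF2 and, as an adaptor of a CUL3 ubiquitin ligase, directs its degradation. When KEAP1 is modified by electrophiles, NRF2 accumulates, pairs with a small MAF protein and binds antioxidant response elements near its target genes. In liver these targets include enzymes of glutathione synthesis, the thioredoxin system, NADPH supply and drug conjugation. Because NRF2 is controlled largely through protein stability, the messenger level of Nfe2l2 does not report its activity.

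The genes described here were chosen by name: the regulators Nfe2l2 and Keap1, the targets Nqo1, Gclc, Gclm, Srxn1, Txnrd1 and G6pdx, and Osgin1, an oxidative stress-induced growth inhibitor that has been described as responsive to NRF2 in other cells. Earlier results of these data were known when they were chosen. Of these 9 genes, 8 had a probe set that the annotation assigns to that gene alone, 1 probe set each, among 19937 genes with such a probe set. All 8 passed the filter on low values, as did 17904 genes in all. G6pdx was not analysed here. Levels are on the log2 intensity scale of the deposited table, where 1 unit stands for a doubling, and are given as mean ± SD over n = 3 arrays.

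Total liver RNA of 12 male mice was hybridised to Affymetrix whole-transcript arrays, with a separate array for each mouse. There were 4 groups of 3 animals: C57Bl/6 wild type with vehicle, C57Bl/6 wild type with dexamethasone, C57Bl/6 HDAC6 Y/- with vehicle and C57Bl/6 HDAC6 Y/- with dexamethasone. HDAC6 Y/- marks males that lack the X-linked gene for Hdac6, a mainly cytoplasmic deacetylase. Dexamethasone, a synthetic glucocorticoid, was injected intraperitoneally at 1 mg/kg, and treatment ran over 3 weeks in drug and vehicle groups alike, with free access to food. The labels give no animal ages, no hour of collection and no interval after the last injection.

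The labels held up against the arrays. Hdac6 read 6.08 to 6.43 in wild-type vehicle livers, 5.86 to 6.18 in wild-type dexamethasone livers, 3.90 to 4.40 in knockout vehicle livers and 3.62 to 3.89 in knockout dexamethasone livers. The glucocorticoid-induced co-chaperone gene Fkbp5 rose by 5.01 ± 0.22 (SE) in wild type and by 4.71 ± 0.22 in the knockout, and Tsc22d3, a glucocorticoid-induced leucine zipper gene, by 1.63 ± 0.17 and 2.46 ± 0.17 (limma adjusted p = 1.27e-06 to 4.88e-05 for Tsc22d3). The mean of 9 hepatocyte markers lay between 12.16 and 12.35 on every array. The mean of 12 exocrine pancreas markers was 7.86 to 9.92 on 4 arrays and 3.09 to 3.52 on the other 8. The 4 were replicates 1 and 2 of wild-type vehicle, replicate 3 of wild-type dexamethasone and replicate 3 of knockout vehicle. Each comparison was repeated with these arrays omitted. Wild-type vehicle then keeps 1 array, assumed to vary as arrays of the remaining groups do. A call lost in that fit, here or in the lists below, does not tell pancreas transcripts from the smaller number of arrays. The 12 Kupffer cell markers averaged 6.70 to 7.59 in wild-type vehicle livers and 5.68 to 6.17 in wild-type dexamethasone livers, with 10 of 12 lower past the threshold. In the knockout they averaged 6.53 to 6.91 with vehicle and 6.36 to 7.24 with dexamethasone, with 0 of 12 called.

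The response element that NRF2 and small MAF proteins recognise has the core TGACNNNGC, or TGAGNNNGC in a variant form, where N is any base. The stretches below are shown because they hold such a core in the promoter of a gene whose level is reported here. They are read 5′ to 3′ on the gene's own strand, and capitals mark the core on whichever strand it lies.
Osgin1: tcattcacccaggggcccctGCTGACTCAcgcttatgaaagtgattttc
Srxn1: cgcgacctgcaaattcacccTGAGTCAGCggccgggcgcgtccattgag
Nfe2l2: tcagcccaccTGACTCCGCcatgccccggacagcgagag
Gclm: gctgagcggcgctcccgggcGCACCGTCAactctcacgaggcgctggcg
Txnrd1: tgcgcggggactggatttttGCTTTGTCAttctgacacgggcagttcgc

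These stretches come from RefSeq promoter windows of build GRCm38.p6, each of 300 bases, 250 before and 50 after a transcript start. They lie at chr8:119437028-119437076 (plus strand) for Osgin1, chr2:152105459-152105507 (plus) for Srxn1, chr2:75704875-75704913 (minus) for Nfe2l2, chr3:122245403-122245451 (plus) for Gclm and chr10:82859094-82859142 (plus) for Txnrd1. The core began 99 bases before the start used for Osgin1, 45 before that of Srxn1, 240 before that of Nfe2l2, 134 before that of Gclm and 92 before that of Txnrd1. The Osgin1 window lies inside the span of the whole gene (chr8:119425882-119446257), before an inner start. So does that of Txnrd1 (gene chr10:82833951-82897724), which has 3 windows, 1 of them with the core.

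Read on the strand of the core, Osgin1 and Srxn1 carried the same 9 letters, TGAGTCAGC. The Srxn1 window held a further TGAG form 158 bases before the start and a TGAC form after the start, neither shown. These letters contain TGAGTCA, the reverse complement of the AP-1 site TGACTCA, so the motifs overlap there. The genes chosen by name have 10 windows in all, 3 of Txnrd1 and 1 each of Nfe2l2, Keap1, Osgin1, Nqo1, Gclm, Srxn1 and G6pdx. At least 1 form of the antioxidant core lay in 6 of these 10 windows, those of the 5 genes shown and that of G6pdx. The TGAG form was added after the sequences were seen, and Osgin1 is counted through that form alone. The TGAC form was found for 5 genes: Nfe2l2, Srxn1, Gclm, Txnrd1 and G6pdx. The windows of Nqo1 and Keap1 held neither form, which says only that these letters are not within these 300 bases. For comparison, 27.8% of all 32851 windows held at least 1 form on either strand, 12.4% the TGAC form and 17.6% the TGAG form, and 5.20% held the AP-1 site. The palindromic core of the glucocorticoid response element was in 0 of these 10 windows and in 0.475% of all windows. Such matches are descriptions of sequence, not sites of binding.

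Osgin1 had by far the largest change of the 8 genes. It read 8.58, 8.65 and 8.45 in wild-type vehicle livers and 5.57, 5.91 and 5.51 in wild-type dexamethasone livers. Knockout livers read 9.44, 8.99 and 8.65 with vehicle and 5.33, 5.28 and 5.01 with dexamethasone. Every dexamethasone array was thus lower than every vehicle array, with a gap of more than 2 log2 units between the highest of the former and the lowest of the latter.

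The group levels of Osgin1 were 8.56 ± 0.10 in wild-type vehicle, 5.66 ± 0.22 in wild-type dexamethasone, 9.03 ± 0.39 in knockout vehicle and 5.20 ± 0.17 in knockout dexamethasone livers. The drug lowered it 7.44-fold in wild type, with a log2 change of -2.90 ± 0.17 (SE, limma adjusted p = 3.31e-07). It fell 14.2-fold in the knockout, with a change of -3.82 ± 0.17 (limma adjusted p = 2.12e-08). Ordered from the steepest decrease, Osgin1 had rank 14 of 17904 genes in wild type and rank 2 in the knockout. Without the 4 arrays with pancreas transcripts the changes were -2.71 ± 0.23 and -4.01 ± 0.17, both still past the threshold. Beside these decreases, the Kupffer marker means did not overlap between vehicle and drug in wild type and did in the knockout, and their part in the Osgin1 result was not tested. In whole liver, fewer cells of a type and less RNA per cell cannot be told apart.

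**Figure D1:**
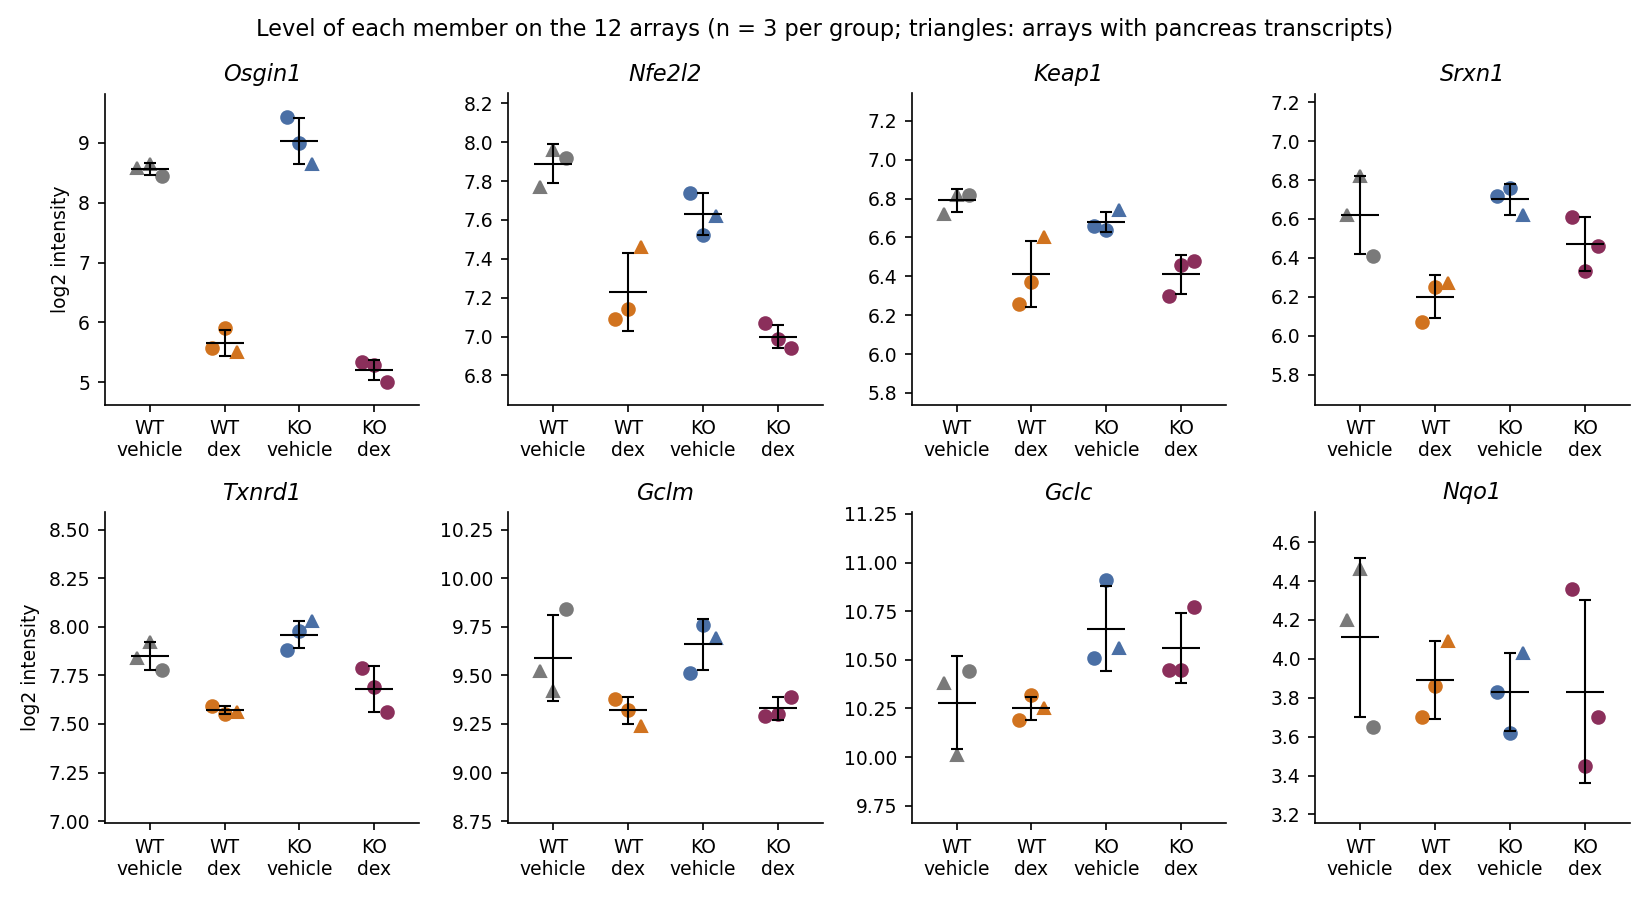
Log2 intensity of 8 genes (y axis, a different range in each panel: 5.2 units tall for Osgin1, 1.6 for the others) on the 12 arrays, by group (x axis; WT wild type, KO Hdac6 knockout, dex dexamethasone). Points are single animals, triangles the 4 arrays with pancreas transcripts, and bars the mean ± SD (n = 3); Osgin1 lies between 5.01 and 5.91 in all dexamethasone livers and between 8.45 and 9.44 in all vehicle livers.

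The order of the Osgin1 levels was knockout vehicle, wild-type vehicle, wild-type dexamethasone and knockout dexamethasone, from high to low. The 2 genotypes did not overlap under either treatment, yet their neighbouring levels did not differ past the threshold. With vehicle the separation was smaller than rounding shows. The nearest arrays, wild-type vehicle 2 and knockout vehicle 3, both read 8.65, and both carried pancreas transcripts. With vehicle the knockout was higher by 0.47 ± 0.17 (SE, limma adjusted p = 0.596), and under the drug it was lower by 0.46 (log2 change -0.46 ± 0.17, limma adjusted p = 0.483). These differences are of nearly equal size and opposite sign, and averaged over treatments the knockout minus wild-type difference was 0.00 ± 0.12.

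The difference between the 2 drug responses, knockout minus wild type, was -0.93 ± 0.24 for Osgin1, with a 95% confidence interval of -1.46 to -0.40. Its unadjusted p was 0.00217, and it did not pass once adjusted over all genes (limma adjusted p = 0.596). No gene passed in this test in limma, 0 of 17904, while 1109 had an unadjusted p under 0.05. Over the alternatives the estimate for Osgin1 stayed negative, between -1.30 and -0.72, with adjusted p-values of 0.375 to 0.960. Its smallest size, -0.72, was without knockout vehicle 1, the highest of all Osgin1 readings. With arrays left out 1 at a time the estimate ran from -1.11 to -0.72. Without the arrays with pancreas transcripts, the drug changes lay further apart, at -2.71 in wild type and -4.01 in the knockout. Wild-type vehicle keeps 1 array in that fit.

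The genes whose pattern over the 12 arrays was most like that of Osgin1 were found by the root mean square difference of log2 values, each gene centred on its own mean. Arrdc3, an arrestin-family gene, was nearest at 0.51, with a wild-type change of -3.75 and a knockout change of -3.88. Nr1d1, a repressor of the circadian clock, followed at 0.74, with changes of -3.59 and -2.70. Depdc7 (-1.78 and -2.07), the RING finger gene Rnf152 (-2.08 and -1.83) and Fam13a (-2.72 and -1.74) were each at 0.82. Being chosen as nearest to Osgin1, the 5 genes share its decrease by selection. None of them is in the pathway lists used here. No other of the 8 genes had group means that spanned 1 log2 unit.

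Osgin2, the paralog of Osgin1, did not share the decrease. Its level was 2.66 ± 0.15 and 3.01 ± 0.36 in wild type with vehicle and drug, and 2.66 ± 0.06 and 3.43 ± 0.54 in the knockout. The changes were 0.35 ± 0.22 and 0.78 ± 0.22, the latter just short of the threshold (limma adjusted p = 0.0508). Over 22 alternatives the knockout change ran from 0.47 to 0.96, and it passed in 6 of them. These levels are close to the array medians of 3.132 to 3.239, so a low signal limits them.

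Among the regulators, Nfe2l2 fell with dexamethasone in both genotypes. It read 7.77, 7.96 and 7.92 in wild-type vehicle livers against 7.09, 7.14 and 7.46 with the drug. Knockout livers read 7.74, 7.52 and 7.62 with vehicle and 7.07, 6.99 and 6.94 with the drug. The groups did not overlap in either genotype, and wild-type dexamethasone 3, which carried pancreas transcripts, was the highest of the 6 dexamethasone arrays.

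Nfe2l2 was 1.57-fold lower in wild type, with a log2 change of -0.65 ± 0.11 (SE, limma adjusted p = 0.00160). It was 1.54-fold lower in the knockout, with a change of -0.63 ± 0.11 (limma adjusted p = 0.00231). The difference between the responses was 0.03 ± 0.15, with a 95% confidence interval of -0.30 to 0.36. Both decreases remained past the threshold in every one of the 22 alternatives, at -0.80 to -0.58 in wild type and -0.68 to -0.57 in the knockout. The change furthest from 0 in wild type, -0.80, came from leaving out the arrays with pancreas transcripts.

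Keap1, the repressor of NRF2, was also lower with the drug. It read 6.72, 6.82 and 6.82 in wild-type vehicle livers and 6.26, 6.37 and 6.60 with dexamethasone, a fall of 0.37 on the log2 scale (log2 change -0.37 ± 0.10, limma adjusted p = 0.0267). In the knockout it read 6.66, 6.64 and 6.74 with vehicle and 6.30, 6.46 and 6.48 with the drug. The groups again did not overlap, but the change of -0.27 ± 0.10 missed the threshold (limma adjusted p = 0.138). The difference between the responses, 0.11 ± 0.14, did not pass either (limma adjusted p = 0.940). The wild-type call for Keap1 was lost without wild-type vehicle 2 (-0.36) or 3 (-0.36), without wild-type dexamethasone 1 (-0.30) or 2 (-0.35), and without the arrays with pancreas transcripts (-0.51).

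Of the target genes, Srxn1, which encodes the sulfiredoxin that repairs overoxidised peroxiredoxins, fell in wild type. It read 6.62, 6.82 and 6.41 with vehicle and 6.07, 6.25 and 6.27 with dexamethasone, a change of -0.42 ± 0.11 (limma adjusted p = 0.0303). In the knockout it read 6.72, 6.76 and 6.62 against 6.61, 6.33 and 6.46, so that the groups met at 6.62 and 6.61 without overlap. The knockout change was -0.23 ± 0.11 (limma adjusted p = 0.304), and the difference between the responses was 0.18 ± 0.16. The wild-type call for Srxn1 was lost without wild-type vehicle 1 (-0.42) or 2 (-0.32), without wild-type dexamethasone 1 (-0.36) or 2 (-0.45), and without the arrays with pancreas transcripts (-0.25).

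**Figure D2:**
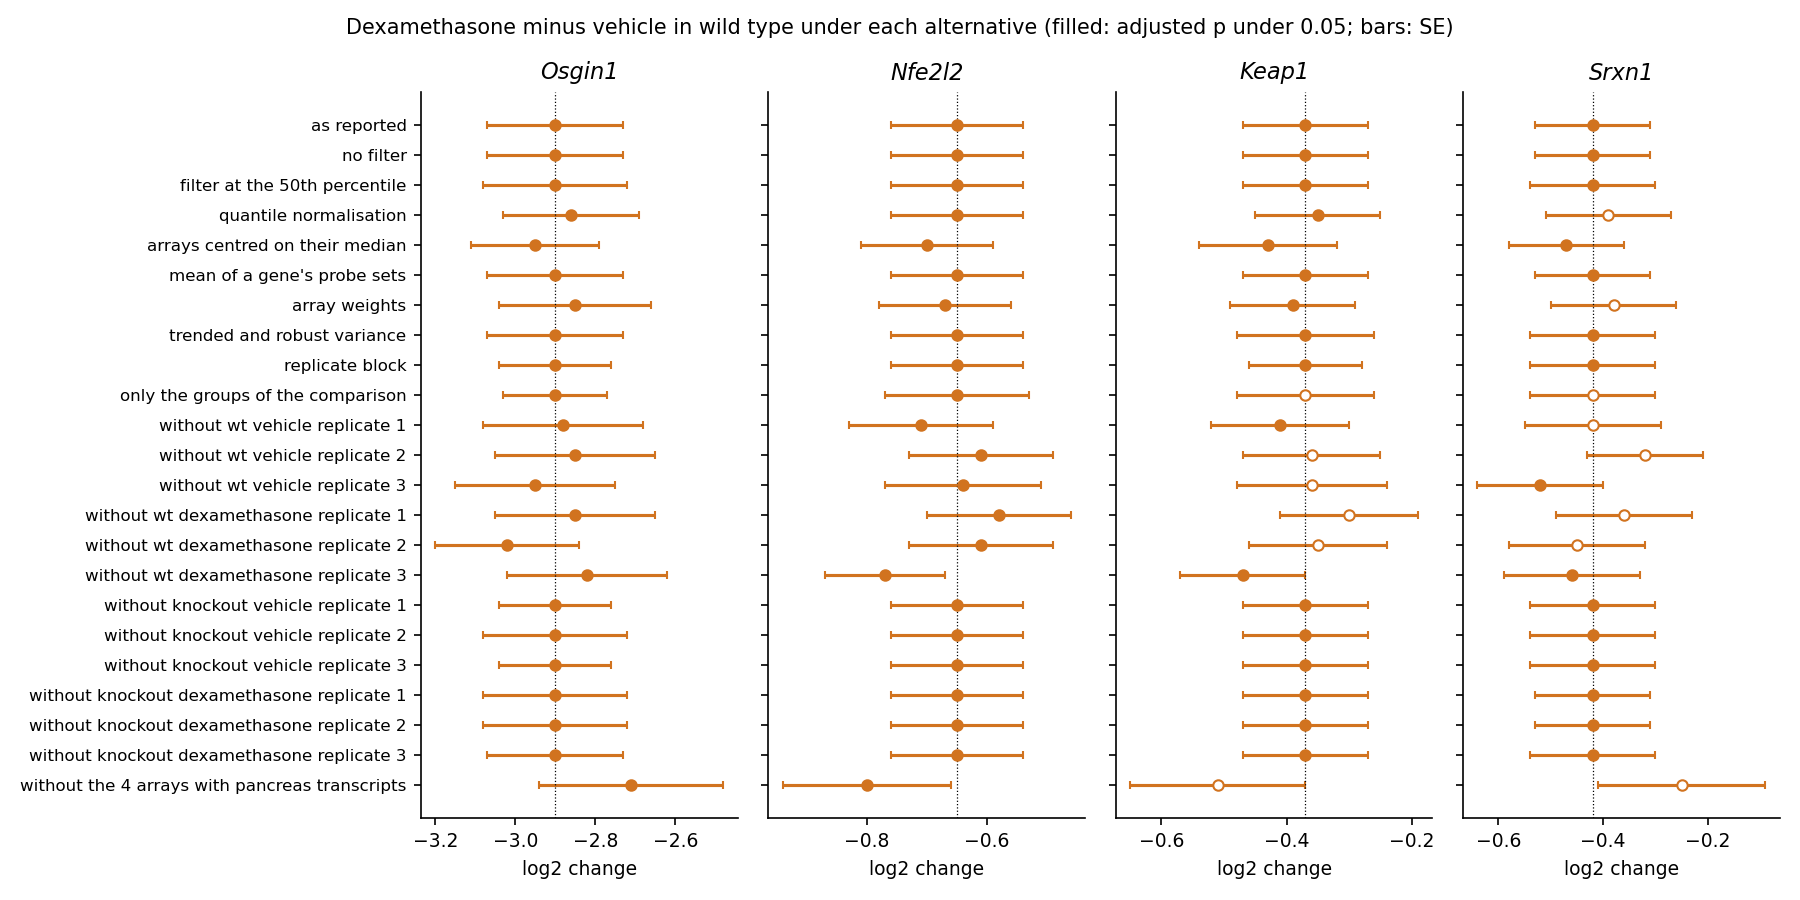
Log2 change with dexamethasone in wild type (x axis, a different range in each panel) of the 4 called genes, as reported and under 22 alternatives (y axis), with SE bars and filled points where the adjusted p was under 0.05; the dotted line is the reported value. Osgin1 (-3.02 to -2.71) and Nfe2l2 (-0.80 to -0.58) are filled throughout, and open points mark 6 alternatives for Keap1 and 8 for Srxn1.

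Txnrd1, the cytosolic thioredoxin reductase, read 7.84, 7.92 and 7.78 in wild-type vehicle livers and 7.59, 7.55 and 7.56 with dexamethasone. In the knockout it read 7.88, 7.98 and 8.03 with vehicle and 7.79, 7.69 and 7.56 with the drug. Neither pair of groups overlapped, and the change was -0.28 ± 0.09 in each genotype. Both lay just short of the threshold, with limma adjusted p-values of 0.0577 for wild type and 0.0664 for the knockout.

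The enzyme that makes the glutathione precursor gamma-glutamylcysteine has a catalytic subunit, encoded by Gclc, and a modifier subunit, encoded by Gclm. Gclm read 9.52, 9.42 and 9.84 in wild-type vehicle livers and 9.38, 9.32 and 9.24 with the drug, and in the knockout 9.51, 9.76 and 9.69 against 9.29, 9.30 and 9.39. Its groups did not overlap in either genotype, with changes of -0.28 ± 0.11 (limma adjusted p = 0.148) and -0.33 ± 0.11 (limma adjusted p = 0.102). Gclc read 10.38, 10.01 and 10.44 against 10.19, 10.32 and 10.25 in wild type. Knockout livers read 10.51, 10.91 and 10.56 with vehicle and 10.45, 10.45 and 10.77 with the drug. Its vehicle and drug arrays overlapped in both genotypes, and the 95% confidence intervals of its changes ran from -0.32 to 0.28 in wild type and from -0.40 to 0.20 in the knockout.

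Nqo1, a quinone reductase that is widely used as a readout of NRF2 activity, showed no call in any comparison. It read 4.20, 4.46 and 3.65 in wild-type vehicle livers, 3.70, 3.86 and 4.09 in wild-type dexamethasone livers, 3.83, 3.62 and 4.03 in knockout vehicle livers and 4.36, 3.45 and 3.70 in knockout dexamethasone livers. All 4 groups overlapped. Its change was -0.22 ± 0.23 for wild type and 0.01 ± 0.23 for the knockout, with 95% confidence intervals of -0.72 to 0.28 and -0.49 to 0.50 that leave changes within those bounds possible. Within each of the 3 groups that held arrays with and without pancreas transcripts, Nqo1 was higher in those with them, by 0.68 in wild-type vehicle, 0.31 in wild-type dexamethasone and 0.30 in knockout vehicle livers. Without the 4 arrays the wild-type change was 0.13 ± 0.31.

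**Figure D3:**
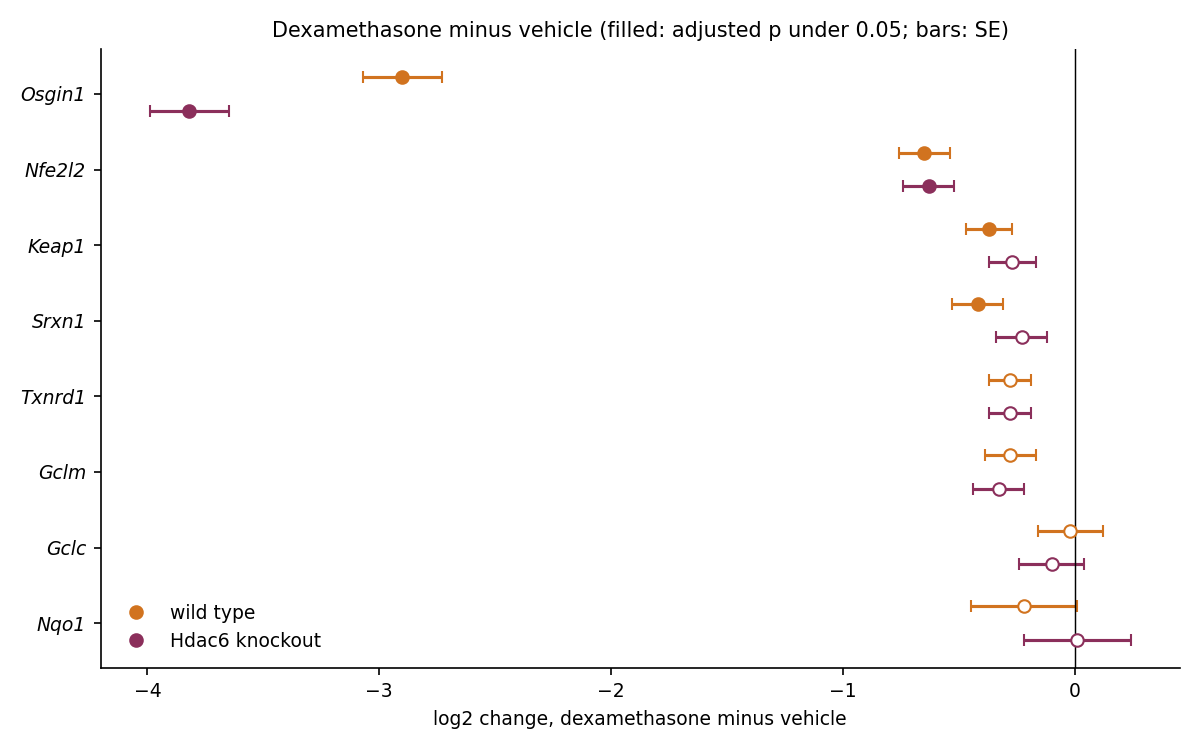
Log2 change with dexamethasone (x axis) of 8 genes (y axis) in wild type and Hdac6 knockout, with SE bars from limma and filled points where the adjusted p was under 0.05. Osgin1 lies at -2.90 and -3.82, and the other 7 genes lie between -0.65 and 0.01.

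Counted together, 4 of the 8 genes were lower and 0 higher in wild type (limma adjusted p under 0.05), where 6.95% of all genes were lower, 4.57% higher and 11.5% called in either direction. In the knockout 2 were lower and 0 higher, where 3.92% of all genes were lower, 4.38% higher and 8.29% called. Vehicle and drug arrays were fully separated for 6 of the 8 in wild type and for 6 of the 8 in the knockout (Nfe2l2, Keap1, Osgin1, Gclm, Srxn1 and Txnrd1 in each), against 27.0% and 24.3% of all genes. Changes lay below 0 for 8 of 8 in wild type and for 7 of 8 in the knockout, against 47.9% and 52.4% of all genes. The 8 genes had a median change of -0.33 for wild type and -0.28 for the knockout, beside 0.01 and -0.009 over all genes. They were chosen with earlier results of these data known. No share of the 8 given here, for drug or genotype, is therefore independent of the choice. Osgin1 and Nfe2l2 were the genes called in both genotypes, and Keap1 and Srxn1 were called in wild type without a difference between genotypes that passed the test. Beside the wild-type calls, 10 of 12 Kupffer markers were lower with the drug in wild type and 0 of 12 in the knockout, and 5 of 8 endothelial markers were lower in wild type and 4 of 8 in the knockout, with 1 higher in each; their part in these results was not tested.

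Between genotypes, 0 of the 8 genes passed under vehicle, under dexamethasone or averaged over treatments in limma, where 0.101%, 0.0279% and 0.0503% of all genes were called. At an unadjusted p under 0.05 there were 3 of 8 under vehicle and 3 of 8 under dexamethasone, against 7.19% and 8.75% of all genes. The groups did not overlap for 3 of 8 under vehicle (Nfe2l2, Osgin1 and Gclc; 11.8% of all genes) and for 4 of 8 under the drug (these and Srxn1; 14.0% of all genes). For Osgin1 under vehicle the nearest arrays of the 2 genotypes both read 8.65.

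Gclc was higher in every knockout array than in every wild-type array of the same treatment. With vehicle its level was 10.28 ± 0.24 against 10.66 ± 0.22 (wild type first), and 10.25 ± 0.06 and 10.56 ± 0.18 with the drug. The differences were 0.38 ± 0.14 and 0.31 ± 0.14, and averaged over treatments 0.35 ± 0.10 (limma adjusted p = 0.264). Nfe2l2 went the other way, by -0.26 ± 0.11 with vehicle and -0.23 ± 0.11 with the drug, and on average by -0.25 ± 0.08 (limma adjusted p = 0.313). Srxn1 was 0.27 ± 0.11 higher in the knockout under the drug (limma adjusted p = 0.537). Keap1 (-0.05 ± 0.07), Gclm (0.04 ± 0.08), Txnrd1 (0.11 ± 0.06) and Nqo1 (-0.16 ± 0.16) had average differences nearer to 0.

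**Figure D4:**
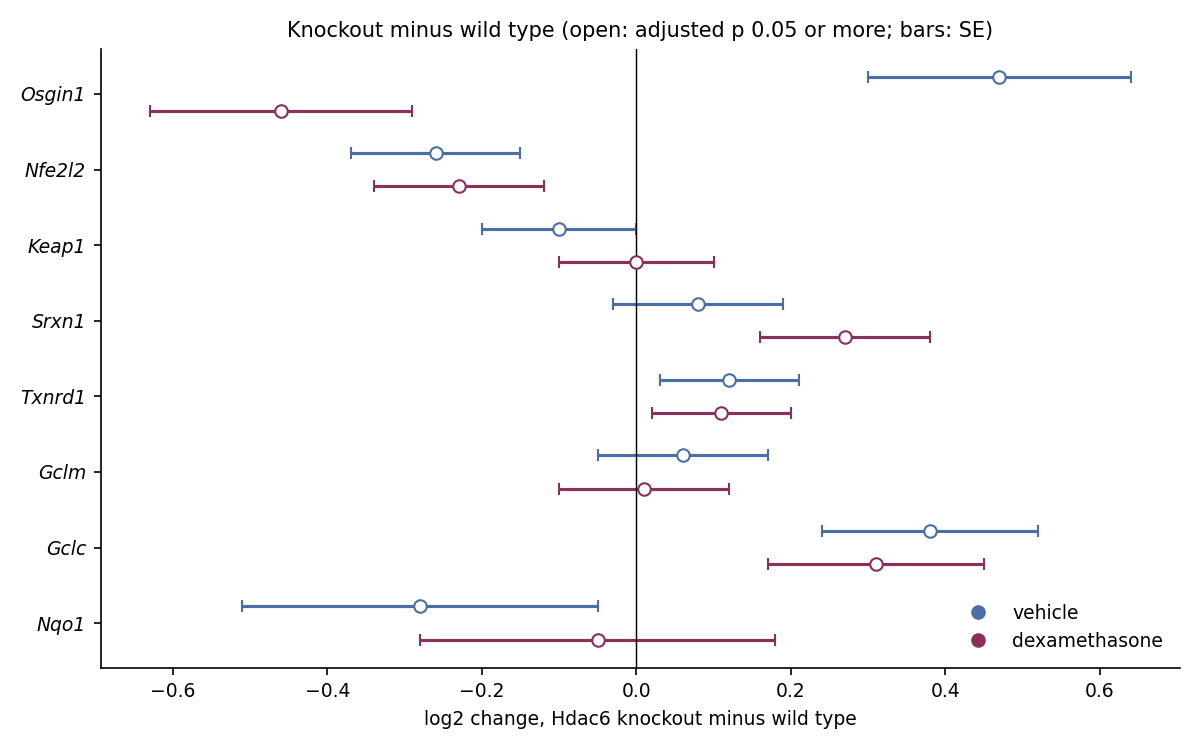
Log2 difference, Hdac6 knockout minus wild type (x axis), of 8 genes (y axis) under vehicle and under dexamethasone, with SE bars from limma; all points are open because no adjusted p was under 0.05. Osgin1 lies at 0.47 with vehicle and at -0.46 with dexamethasone, while Gclc lies above 0 and Nfe2l2 below 0 under both.

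The wider pathway was described with 6 lists of 69 other genes, of which 63 were measured and tested. These lists too were chosen with earlier results of these data known. Of these 63, 4 were higher and 9 lower in wild type and 3 were higher and 4 lower in the knockout. That is 20.6% and 11.1% called, beside 11.5% and 8.29% of all genes. The median changes were -0.08 and -0.03.

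Among 7 regulators of NRF2, Sqstm1, which encodes the KEAP1-binding autophagy receptor p62, fell in both genotypes. Its level went from 10.32 ± 0.14 to 9.78 ± 0.08 in wild type and from 10.49 ± 0.05 to 9.96 ± 0.26 in the knockout, by -0.54 ± 0.12 and -0.53 ± 0.12 (limma adjusted p = 0.0112 and 0.0158). Rbx1, the RING subunit of the CUL3 ligase, rose by 0.34 ± 0.10 in wild type and was at 0.10 ± 0.10 in the knockout. The difference between these Rbx1 responses, -0.23 ± 0.14, did not pass (limma adjusted p = 0.843). The small MAF gene Mafk (-0.42 ± 0.17 and -0.17 ± 0.17) and the repressor gene Bach1 (0.40 ± 0.21 and 0.32 ± 0.21) did not pass. Without wild-type dexamethasone 3, Bach1 passed in wild type (0.64). In this list 28.6% were called in wild type and 14.3% in the knockout, beside 11.5% and 8.29% of all genes. The Rbx1 call held in 10 of 22 alternatives. Among single arrays, it was lost when any of vehicle 1 (0.34), 2 (0.32) or 3 (0.36) or dexamethasone 2 (0.34) or 3 (0.28) of wild type, or vehicle 3 of the knockout (0.34), was left out. The knockout call of Sqstm1 was lost without knockout vehicle 2 (-0.51) or 3 (-0.51) or knockout dexamethasone 3 (-0.39). Without the arrays with pancreas transcripts, Sqstm1 was at -0.40 and -0.51 and Rbx1 at 0.24, with 0 of the 7 called.

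Of 11 glutathione genes, 2 were higher and 2 lower in wild type and 2 were higher and 0 lower in the knockout. Called shares were thus 36.4% and 18.2%, beside 11.5% and 8.29% of all genes. Glrx, a glutaredoxin, rose in both, by 1.05 ± 0.16 (limma adjusted p = 7.06e-04) and 0.58 ± 0.16 (limma adjusted p = 0.0354), from 6.86 ± 0.19 to 7.91 ± 0.25 and from 6.66 ± 0.26 to 7.24 ± 0.16. Chac1, which degrades glutathione, rose in wild type (0.68 ± 0.20; 0.47 ± 0.20 in the knockout), and Gpx3, a secreted glutathione peroxidase, rose in the knockout (0.59 ± 0.13; 0.17 ± 0.13 in wild type). The reductase gene Gsr fell in wild type by 0.33 (log2 change -0.33 ± 0.09; -0.15 ± 0.09 in the knockout). The other decrease was in the glutathione synthetase gene Gss (-0.45 ± 0.13), named after its value was seen. For Chac1, Gpx3, Gsr and Gss, the difference between the responses of the genotypes did not pass. Leaving out 1 array at a time, the wild-type counts ranged from 1 to 2 higher and from 0 to 2 lower, and the knockout count from 0 to 3 higher. Chac1 was lost when vehicle 2 (0.64) or 3 (0.56) or dexamethasone 1 (0.62) or 2 (0.59) of wild type, or vehicle 3 (0.68) or dexamethasone 1 (0.68) or 2 (0.68) of the knockout, was left out. Without knockout vehicle 2, Chac1 passed in the knockout (0.70). Gsr was lost when vehicle 2 (-0.33) or 3 (-0.29) or dexamethasone 2 (-0.31) or 3 (-0.32) of wild type was left out. In the knockout, Glrx was lost without vehicle 1 (0.49) or 3 (0.53) or dexamethasone 1 (0.60), 2 (0.65) or 3 (0.50), and Gpx3 without vehicle 1 (0.50). Without the arrays with pancreas transcripts 1 was higher and 0 lower in each genotype: Glrx in wild type (1.41) and Gpx3 in the knockout (0.72), with Chac1 (1.06) and Gsr (-0.42) in wild type and Glrx (0.53) in the knockout past no threshold.

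Of 12 thioredoxin and peroxiredoxin genes, 1 was higher and 2 lower in wild type and 1 was higher and 1 lower in the knockout. The called shares were 25% and 16.7%, beside 11.5% and 8.29% of all genes. Sestrin products act in stress and nutrient signalling. Sesn1 rose by 0.76 ± 0.12 and 0.77 ± 0.12, Sesn3 fell by 0.58 and 0.50 (log2 changes -0.58 ± 0.12 and -0.50 ± 0.12), and Sesn2, named to complete the family, did not pass (0.34 ± 0.18 and 0.17 ± 0.18). The mitochondrial reductase gene Txnrd2 fell in wild type (-0.41 ± 0.09) and was at -0.06 ± 0.09 in the knockout. The difference between these Txnrd2 responses, 0.35 ± 0.13, did not pass (limma adjusted p = 0.754). Txnip, a thioredoxin-binding arrestin gene, did not pass (-0.35 ± 0.19 and -0.64 ± 0.19). Without knockout dexamethasone 1, Txnip passed in the knockout (-0.85). The knockout call of Sesn3 was lost without knockout vehicle 1 (-0.41) or 3 (-0.49) or knockout dexamethasone 3 (-0.41). Without the arrays with pancreas transcripts, Sesn1 in the knockout (0.82) was the single call left, with Sesn1 at 0.67, Sesn3 at -0.47 and Txnrd2 at -0.46 in wild type and Sesn3 at -0.49 in the knockout.

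Of 21 detoxification and export genes, 0 were higher in either genotype, 4 were lower for wild type and 2 for the knockout. These are 19% and 9.52%, beside 6.95% and 3.92% of all genes lower and 11.5% and 8.29% called in either direction. Hmox1, the haem oxygenase gene, read 6.81, 6.25 and 6.09 in wild-type vehicle livers and 4.99, 5.21 and 5.50 with the drug, a change of -1.15 ± 0.23 (limma adjusted p = 0.00467). In the knockout it read 6.12, 6.55 and 6.29 against 6.28, 6.29 and 5.53, groups that overlapped, with a change of -0.29 ± 0.23. The difference between the responses, 0.87 ± 0.32, did not pass (limma adjusted p = 0.754). The pattern of Hmox1 ran beside the Kupffer marker means, which were lower with the drug in wild type and overlapped in the knockout, and their part in it was not tested.

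Aox1, an aldehyde oxidase gene, fell in both genotypes, by -0.68 ± 0.11 (limma adjusted p = 0.00177) and -0.61 ± 0.11 (limma adjusted p = 0.00398). Gsta4, a glutathione transferase gene, fell in wild type (-0.87 ± 0.20) and was at -0.14 ± 0.20 in the knockout, and Ephx1, the microsomal epoxide hydrolase gene, did likewise (-0.45 ± 0.12 and -0.19 ± 0.12). The differences between the responses, 0.73 ± 0.29 for Gsta4 and 0.26 ± 0.17 for Ephx1, did not pass (limma adjusted p = 0.754 and 0.852). Like Hmox1, Gsta4, Ephx1 and Txnrd2 had vehicle and drug groups apart in wild type and overlapping in the knockout. The knockout's other call was the ferritin light chain gene Ftl1 (-0.94 ± 0.26), named after its value was seen, a gene with many near-identical copies whose signal is uncertain. The wild-type count of 4 lower was 2 when vehicle 2 or dexamethasone 1 of wild type was left out. Without wild-type vehicle 2, 1 gene was also called higher. In these fits Gsta4 was at -0.77 and -0.62 and Ephx1 at -0.45 and -0.42, all without a call, and Ephx1 was also lost when vehicle 3 (-0.40) or dexamethasone 3 (-0.39) of wild type was left out. The knockout count of 2 lower was 1 without wild-type dexamethasone 2, knockout vehicle 1, 2 or 3, or knockout dexamethasone 2, and 1 with a trended and robust variance. Without the arrays with pancreas transcripts Aox1 was the call left in each genotype, with Hmox1 at -0.99, Gsta4 at -0.73 and Ephx1 at -0.50 in wild type.

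The list of NADPH-producing genes also holds pentose phosphate genes whose enzymes make no NADPH themselves, such as Tkt and Rpia. Of its genes, 0 of 8 were called in either genotype, with median changes of -0.20 and -0.12. Those with the smallest p were the pentose phosphate genes Pgd (-0.34 ± 0.13 and -0.11 ± 0.13), Tkt (-0.24 ± 0.10 and -0.13 ± 0.10) and Rpia (-0.17 ± 0.11 and -0.12 ± 0.11), and H6pd (-0.28 ± 0.15 and -0.10 ± 0.15). Without wild-type vehicle 3, Pgd passed in wild type (-0.45). The genes for superoxide and peroxide removal, Sod1, Sod2, Sod3 and Cat, also had 0 of 4 called, with changes between -0.30 and 0.05 in wild type and between -0.06 and 0.10 in the knockout.

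**Figure D5:**
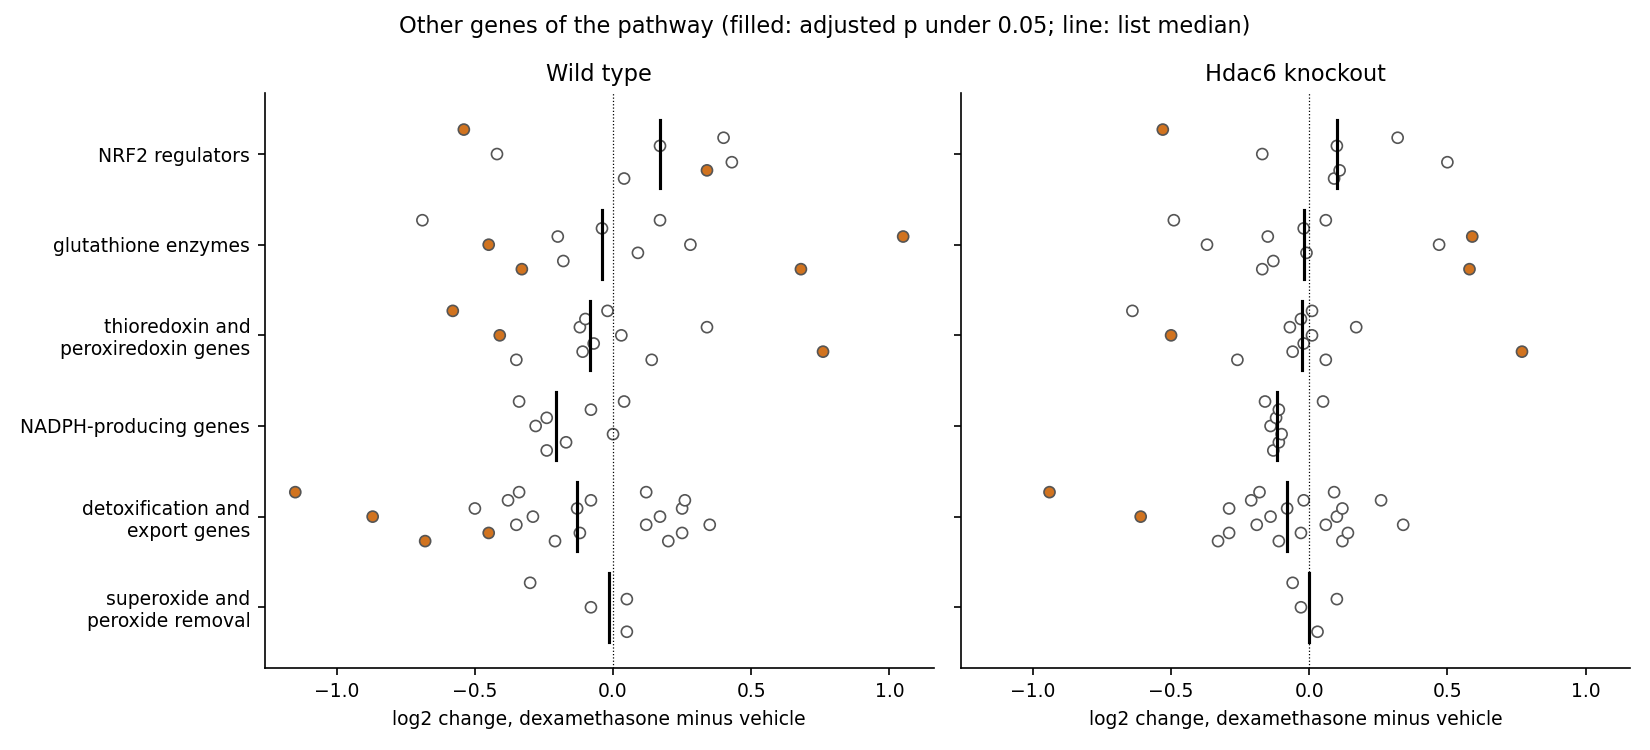
Log2 change with dexamethasone (x axis) of 63 other genes of the pathway in 6 lists (y axis; vertical spread within a list is for display only), in wild type and Hdac6 knockout, with filled points where the limma adjusted p was under 0.05 and black lines at list medians. The changes run from -1.15 to 1.05 in wild type and from -0.94 to 0.77 in the knockout, and called genes lie on both sides of 0.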

How the data were processed

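Log2 expression values of 34760 probe sets on 12 arrays were deposited by the authors, who used R 2.10.0 and affy, per the submitters' processing notes. Background correction, normalisation and summarisation are not given in the sources used here. The log2 base was inferred from the range of 0.927 to 13.5.

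Genes were named by probe sets with 1 symbol (21640), keeping the highest mean per gene. A gene was kept if above its array's 20th percentile on at least 3 arrays. Group means of all 12 arrays were fitted with limma 3.58.1 in R 4.3.3 (8 residual and 5.07 prior degrees of freedom), with Benjamini-Hochberg adjustment over 17904 genes and a threshold of 0.05. The fit was run on simulated data with planted changes and independent noise. That run checked the code and does not test the calls reported here. The number of arrays limits the precision. P-values set each change against the spread within groups, pooled over all groups. With 1 array per animal, that spread holds differences between animals and between arrays alike.

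The genes and lists were chosen with earlier results of these data known. Named from the lists were the 4 genes with the smallest p over both drug comparisons, and like Osgin1 the 5 nearest genes. The TGAG form, the AP-1 site and the glucocorticoid element were added after the sequences were seen.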

Additional observations from a re-analysis of the deposited data

How the results depend on the processing

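The changes of the 8 genes were recomputed under 22 alternatives, 1040 values in all: 0 reversed with a call, 14 lost and 3 gained a call, and 56 without a call crossed 0. The calls of Osgin1 and Nfe2l2 in both genotypes held in all 22. The wild-type count of 4 called genes (2064 of all genes) became 2 when only the groups of the comparison were fitted (1698 of all genes). It ranged from 2 to 5 when arrays were left out 1 at a time. The count of 2 came without replicate 2 of wild-type vehicle (1746 of all genes), or replicate 1 (1511) or 2 (1417) of wild-type dexamethasone. The count of 5 came without replicate 3 of knockout dexamethasone (2165 of all genes). Keap1 (-0.51) and Srxn1 (-0.25) also lost their wild-type call without the 4 pancreas-bearing arrays, where wild-type vehicle keeps 1 array. A call lost there does not tell pancreas transcripts from the smaller number of arrays. Fitting only the compared groups, Keap1 was at -0.37 (adjusted p = 0.0763) and Srxn1 at -0.42 (0.0732). Srxn1 also missed the threshold with quantile normalisation (-0.39, adjusted p = 0.0519) and array weights (-0.38, 0.0547). Txnrd1 passed in wild type with median-centred arrays (-0.33, adjusted p = 0.0358) and without knockout dexamethasone 3 (-0.28, 0.0471), and in the knockout with quantile normalisation (-0.32, 0.0417). The replicate block gave 4 and 2 called genes and changed no call. No pairing by replicate number was seen. Deviations correlated above 0.1 in 3 of 18 same-numbered pairs (-0.537 to 0.356), and 1 of 12 arrays correlated best with its own number. Arrays with pancreas transcripts in different groups correlated with each other at 0.127 to 0.399. A weaker pairing by number could be hidden beneath this, so the check cannot exclude it. Between genotypes and in the interaction, 0 of the 8 were called under any alternative; fitting only the compared groups does not apply to the interaction and the average.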
